A study of Mus musculus with 4 samples.

Results

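The 10 genes described here are heat shock protein and small chaperone genes measured at the 5′ ends of transcripts in mouse skeletal muscle. They are Hspa5 and Hsp90b1 of the endoplasmic reticulum (ER), Hspa8, Hsp90aa1 and Hsp90ab1 of the cytosol, Hspa9 of the mitochondrion, and the small heat shock protein genes Hspb1, Hspb6, Hspb7 and Cryab. Members were chosen by gene symbol and not by a threshold on their levels, and all 10 were in the table, which held 9838 genes. They had 61 of the 42207 alternative start sites (ASSs), each of which is a cluster of nearby read ends. Male adult C57BL/6 mice with an AMPKα2-/- knockout (KO) were compared with wild-type (WT) mice, with 2 animals and 2 libraries per group. The knockout removed DNA for part of the catalytic domain of AMPKα2, a subunit of the AMP-activated protein kinase, which senses the energy state of cells. The tissue was gastrocnemius muscle, and the method was whole transcriptome start site sequencing (WTSS-seq).

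Heat shock proteins of the HSP70 and HSP90 families bind unfolded or nearly folded proteins and release them in cycles driven by ATP, and each compartment of the cell has its own family members. Small heat shock proteins use no ATP, form oligomers that hold unfolding proteins, and in muscle many of them bind filaments of the cytoskeleton and sarcomere. Cytosolic chaperone genes are classically induced by heat shock factors through the heat shock element, and ER chaperone genes by the unfolded protein response through the ER stress element.

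Upstream sequences are shown because the members differ in these elements. RefSeq promoters (GRCm38.p6, 250 bases before to 50 bases after the gene start) were held for 5 members, with 6 promoters in all. The ER stress element was searched as CCAAT and CCACG with a spacer of 9 bases, on both strands, and was found in 39 of 32851 promoters, or 0.119%. Both ER members held it, Hspa5 once and Hsp90b1 in 2 places, while the promoters of Hspb1, Hspb6 and Hspb7 did not. In the lines below, capitals mark the ER stress element in Hspa5 and Hsp90b1, and the 2-unit heat shock element in Hspb1. The Hspa5 sequence is chr2:34771840-34772089 on the plus strand, the Hsp90b1 sequence is chr10:86705445-86705694 on the minus strand, and the Hspb1 sequence is chr5:135887669-135887918 on the plus strand, each printed 5′ to 3′ and ending at the base before the gene start.
Hspa5: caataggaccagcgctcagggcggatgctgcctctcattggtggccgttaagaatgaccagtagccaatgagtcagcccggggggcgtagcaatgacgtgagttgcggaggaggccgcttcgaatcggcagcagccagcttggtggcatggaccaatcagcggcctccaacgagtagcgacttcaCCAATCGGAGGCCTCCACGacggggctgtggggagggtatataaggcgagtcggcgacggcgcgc
Hsp90b1: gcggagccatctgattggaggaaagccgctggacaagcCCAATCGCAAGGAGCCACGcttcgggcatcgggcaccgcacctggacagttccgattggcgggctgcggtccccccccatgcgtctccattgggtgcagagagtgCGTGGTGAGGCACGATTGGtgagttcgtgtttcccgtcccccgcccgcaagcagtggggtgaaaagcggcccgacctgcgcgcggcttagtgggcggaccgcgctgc
Hspb1: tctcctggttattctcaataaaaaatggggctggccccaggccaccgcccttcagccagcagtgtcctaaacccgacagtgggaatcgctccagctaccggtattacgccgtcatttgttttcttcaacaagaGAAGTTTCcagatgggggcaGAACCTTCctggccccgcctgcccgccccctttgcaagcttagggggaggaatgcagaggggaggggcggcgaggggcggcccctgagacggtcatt

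The element of Hspa5 lay 65 to 47 bases before the gene start. Those of Hsp90b1 lay 212 to 194 bases and 107 to 89 bases before it, the second one on the opposite strand, and the same letters include a CCAAT box, which 37.4% of promoters held. The 2-unit heat shock element, searched as GAANNTTC or TTCNNGAA, was in 15.1% of promoters. Hspb1 held it in 2 places, 117 to 110 and 97 to 90 bases before its start, and Hspb6 in 1 of its 2 promoters. The 3-unit heat shock element, found in 0.603% of promoters, was in no member promoter searched, and TATAAA, in 13.6% of promoters, was found in Hspb6. No promoter sequence was used here for Hspa8, Hsp90aa1, Hsp90ab1, Cryab and Hspa9. A match of letters is a description and not evidence that a factor binds.

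Depth differed between the groups, with 2900279 and 2303294 reads in KO as opposed to 1300069 and 1568945 in WT, so members were compared as counts divided by size factors (normalized counts). Members held 3207 and 3370 reads in KO against 2455 and 3495 reads in WT. Prkaa2, which encodes AMPKα2, had normalized counts of 149 and 183 in KO against 153 and 186 in WT (log2 fold change -0.03, SE 0.50, adjusted p = 0.994 by DESeq2), so the summed reads of the targeted gene did not tell the groups apart. The start of a transcript can lie outside the deleted coding DNA, so this sum does not check the deletion, and the libraries are named by their labels. In this bulk tissue, fewer cells of a type and less RNA per cell cannot be told apart.

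Both ER members were lower in KO than in WT, and they were the only members past the threshold, an adjusted p under 0.1 by the Wald test of DESeq2. Of all 4688 genes tested, 0.96% were called lower by that rule. Hspa5, at 34772090 to 34776529 of chromosome 2, encodes the ER HSP70 BiP, which binds proteins entering the ER and keeps the sensors of the unfolded protein response inactive. The KO libraries had normalized counts of 62.9 (replicate 1) and 78.6 (replicate 2), and the WT libraries had 210 and 234. Both KO libraries lay below both WT libraries, and the gap between the groups was wider than the spread within either. The mean was 70.8 ± 11.1 (SD, n = 2) in KO against 222 ± 16.8 in WT, which made WT 3.14-fold higher. The log2 fold change was -1.65 (SE 0.52, 95% interval -2.66 to -0.64) with an adjusted p of 0.0658 by DESeq2. These values rested on 103 and 90 reads in KO and on 150 and 188 reads in WT.

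Hsp90b1, at 86690841 to 86705444 of chromosome 10, encodes GRP94, the HSP90 of the ER, whose clients include integrins and Toll-like receptors. Its normalized count was 237 and 362 in KO against 759 and 817 in WT. The groups again did not overlap, with KO replicate 1 the lowest library for both genes. The log2 fold change was -1.40 (SE 0.44, 95% interval -2.26 to -0.53), the adjusted p by DESeq2 was 0.0715, and WT was 2.63-fold higher. Summed over both ER members, the normalized count was 300 and 440 in KO against 969 and 1051 in WT. The quasi-likelihood test of edgeR gave adjusted p-values of 0.189 for Hspa5 and 0.249 for Hsp90b1, so neither was past the threshold there. With any 1 of the 4 libraries left out, neither was past it in DESeq2, although the log2 fold change stayed between -1.81 and -1.49 for Hspa5 and between -1.72 and -1.11 for Hsp90b1.

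**Figure D1:**
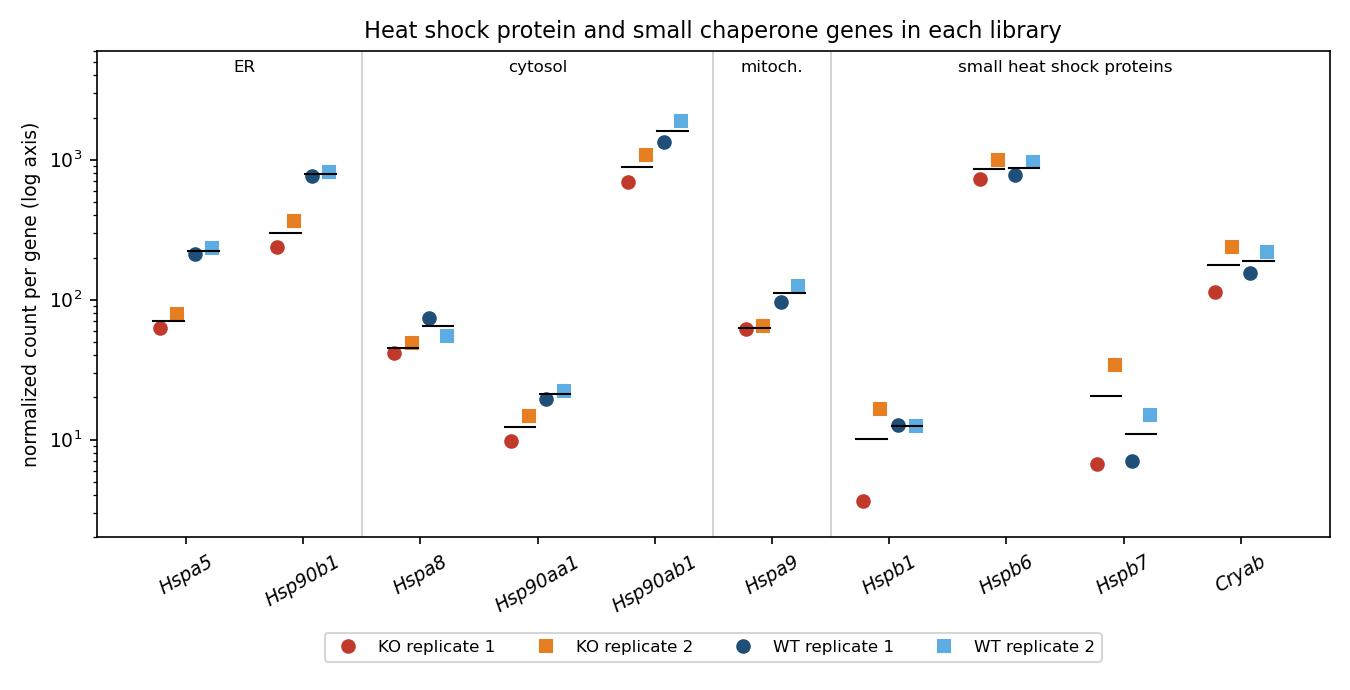
Normalized count per gene (log axis) of the 10 members in each of the 4 libraries, grouped by compartment, with black bars for the mean of 2 libraries per group. For Hspa5, KO libraries lie at 62.9 and 78.6 and WT libraries at 210 and 234, whereas the KO and WT points of the 4 small heat shock protein genes overlap.

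Single sites of the ER members were read next, since a gene sum can rest on 1 site. Of the 61 member sites, 26 passed the count filter and 2 were called, both lower in KO and both in Hsp90b1, against a background of 0.882% of tested sites called lower. The first lay at 86694008 to 86694067, within an annotated transcript (class code c) and 11386 bases from the gene start. Its normalized count was 25.6 and 20.7 in KO against 155 and 121 in WT (log2 fold change -2.57, SE 0.74, adjusted p = 0.0299 by DESeq2). The second, at 86704349 to 86704416, overlapped an exon and an intron (class code e) 1058 bases from the start and was the Hsp90b1 site with most reads. It had 81.4 and 108 in KO against 370 and 345 in WT (log2 fold change -1.92, SE 0.61, adjusted p = 0.0664 by DESeq2). At both sites the KO libraries lay far below the WT libraries and the replicates of a group lay close together. The site next in order of p was the main Hspa5 site, at 34775860 to 34775940, with 23.6 and 33.7 in KO against 97.7 and 106 in WT (log2 fold change -1.84, SE 0.77, adjusted p = 0.279 by DESeq2), which was not past the threshold. By edgeR 0 member sites were called, where 0.285% of all sites kept were called lower at an adjusted p under 0.1. Of the member sites, 4 reached an unadjusted p under 0.05 by edgeR, and the share of all sites at that level is not given here.

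Lower values were found at several sites of each gene. Apart from the site at 1956 bases, the Hspa5 sites lay 3594 to 4129 bases from the gene start, in a gene of 4.44 kb. Sites are parts of the gene sums already given, so their direction is not separate support, and some held as few as 10 reads in all. In Hspa5, 7 of 8 sites had both KO libraries below both WT libraries and 0 had them above. In Hsp90b1 it was 8 of 14 and 0, whereas 13.9% of all sites in the table had KO below WT in this way. The exception of most reads was the Hsp90b1 site that spans the annotated start, at 86705414 to 86705519, which partly overlaps the upstream sequence printed above. Its listed position lay 69 bases before the gene start, downstream of both ER stress elements. It had 64.3 and 121 in KO against 21.7 and 97.0 in WT, so the groups overlapped and the lowest value was in a WT library (log2 fold change 0.64, SE 0.87, adjusted p = 1.00 by DESeq2). As a share of the reads of Hsp90b1, it took 25.3% and 33.8% in KO against 2.96% and 12.8% in WT. The test of changed site usage (diffSpliceDGE of edgeR) gave an adjusted p of 0.456 for this site, and an adjusted p of 0.682 for Hsp90b1 as a gene. Of the 6 members with at least 2 sites in that test, 0 were called, against 1.37% of all genes tested, and 0 had an unadjusted p under 0.05 by Simes or a call by the gene-level F test.

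**Figure D2:**
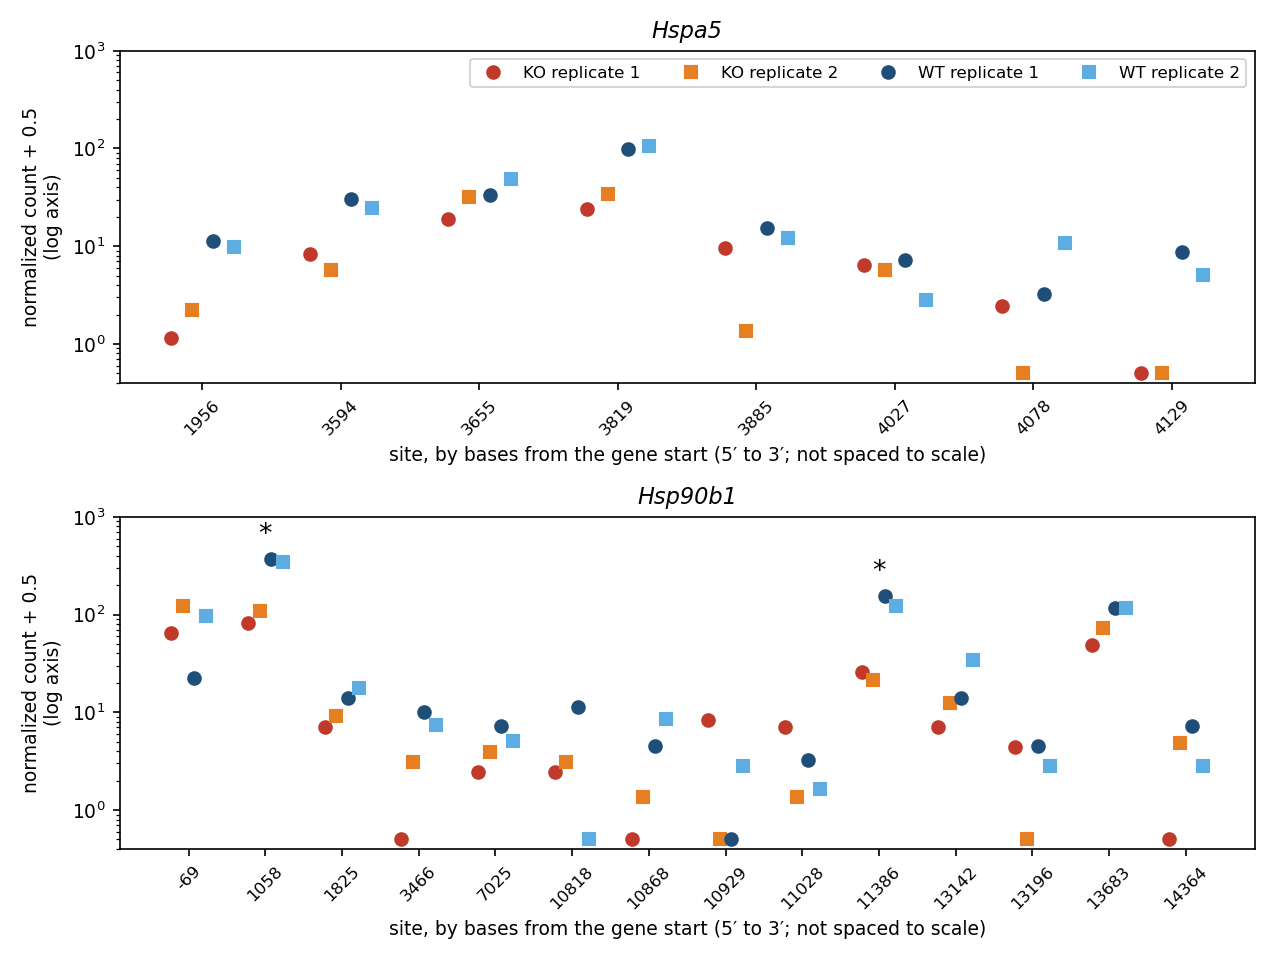
Normalized count plus 0.5 (log axis) at each site of Hspa5 and Hsp90b1 in each library, in order of distance from the gene start, with asterisks at sites with an adjusted p under 0.1. KO points lie below WT points at 7 of 8 Hspa5 sites and 8 of 14 Hsp90b1 sites, and the points overlap at the Hsp90b1 site 69 bases before the gene start.

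The cytosolic members had lower values in both KO libraries than in both WT libraries, but none was past the threshold. Hsp90ab1 encodes the constitutive HSP90 of the cytosol, which matures kinases and steroid receptors. Its normalized count was 692 and 1088 in KO against 1336 and 1881 in WT, and 69.1% of its reads were at the site 45570373 to 45570581 of chromosome 17. The spread within each group was wide beside the gap between them, and the log2 fold change of -0.85 (SE 0.44, 95% interval -1.71 to 0.00) had an adjusted p of 0.512 by DESeq2. Hsp90aa1, the stress-inducible HSP90, was low, with 9.77 and 14.9 in KO against 19.6 and 22.4 in WT from 14 to 18 reads per library (log2 fold change -0.78, SE 1.07, adjusted p = 0.951 by DESeq2). Hspa8 encodes HSC70, the constitutive HSP70 that also uncoats clathrin vesicles and serves chaperone-mediated autophagy. It had 41.5 and 48.9 in KO against 74.3 and 54.8 in WT (log2 fold change -0.51, SE 0.68, adjusted p = 0.951 by DESeq2), with 77.4% of reads at the site 40801915 to 40802013 of chromosome 9. The intervals of Hspa8 and Hsp90aa1 reached from -1.84 to 0.82 and from -2.88 to 1.32 on the log2 scale, and both hold the value of Hspa5. These genes have close relatives and processed pseudogenes, and how reads that match several loci were counted was not given in the sources used here, so their levels are uncertain to that extent.

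Hspa9 encodes mortalin, the mitochondrial HSP70 that pulls imported proteins into the matrix and takes part in the assembly of iron-sulphur clusters. Its normalized count was 61.7 and 64.7 in KO against 96.8 and 126 in WT, over 11 sites of which the main one held 24.1% of the reads. The groups did not overlap and the KO libraries lay close together, yet the log2 fold change of -0.82 (SE 0.59, 95% interval -1.97 to 0.33) had an adjusted p of 0.786 by DESeq2.

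The small heat shock protein genes gave overlapping groups throughout. Hspb6, which encodes HSP20, a muscle protein phosphorylated by cyclic nucleotide-dependent kinases, had 731 and 999 in KO against 773 and 970 in WT. Both groups held 1 lower and 1 higher library, and the log2 fold change was -0.01 (SE 0.42, 95% interval -0.84 to 0.82, adjusted p = 0.996 by DESeq2). Most of its reads were at 2 wide sites of chromosome 7, with 58.2% at 30554845 to 30555087 and 39.3% at 30554397 to 30554673. Cryab encodes αB-crystallin, which binds desmin and titin, and had 113 and 239 in KO against 154 and 220 in WT, with 87.9% of reads at the site 50756263 to 50756456 of chromosome 9. Here KO held both the lowest and the highest library (log2 fold change -0.10, SE 0.55, adjusted p = 0.992 by DESeq2).

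Hspb1 and Hspb7 were below the count filter of DESeq2 (mean normalized count 16.5) and had no adjusted p. Hspb1, which encodes HSP27, a regulator of actin filaments, had 6 and 19 reads in KO against 9 and 10 in WT. All of them were at 1 site, 135887884 to 135887994 of chromosome 5, which spans the annotated start. Its normalized count was 3.66 and 16.6 in KO against 12.6 and 12.5 in WT, so the KO libraries lay on either side of the WT libraries. Hspb7, a heart and muscle member that acts on thin filaments, had 6.72 and 34.1 in KO against 7.01 and 14.9 in WT, with 74.6% of reads at the site 141424289 to 141424484 of chromosome 4. The intervals of their log2 fold changes, -2.94 to 2.29 and -1.52 to 3.28, cover both directions.

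Over the members, 8 of 10 were tested, 2 were called lower in KO against 0 higher by DESeq2. Over the table, 1.71% of genes tested were called higher. By edgeR, which kept all 10 members, 0 were called, where 0.343% of genes over the table were called lower at an adjusted p under 0.1. Of the members, 2 reached an unadjusted p under 0.05 by edgeR, and the share of all genes at that level is not given here. Both KO libraries lay below both WT libraries in 6 of the 8 tested members, which are all 6 HSP70 and HSP90 members, and above them in 0. The same non-overlap was found in 19.4% of all tested genes. The median log2 fold change was -0.80 over the tested members and 0.01 over all tested genes. The summed normalized count of the cytosolic members was 743 and 1152 in KO against 1430 and 1958 in WT, while that of the small heat shock protein members was 854 and 1288 in KO against 947 and 1218 in WT. The first pair of groups was separate and the second overlapped. The difference between the ER members and the small heat shock protein members was not tested.

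**Figure D3:**
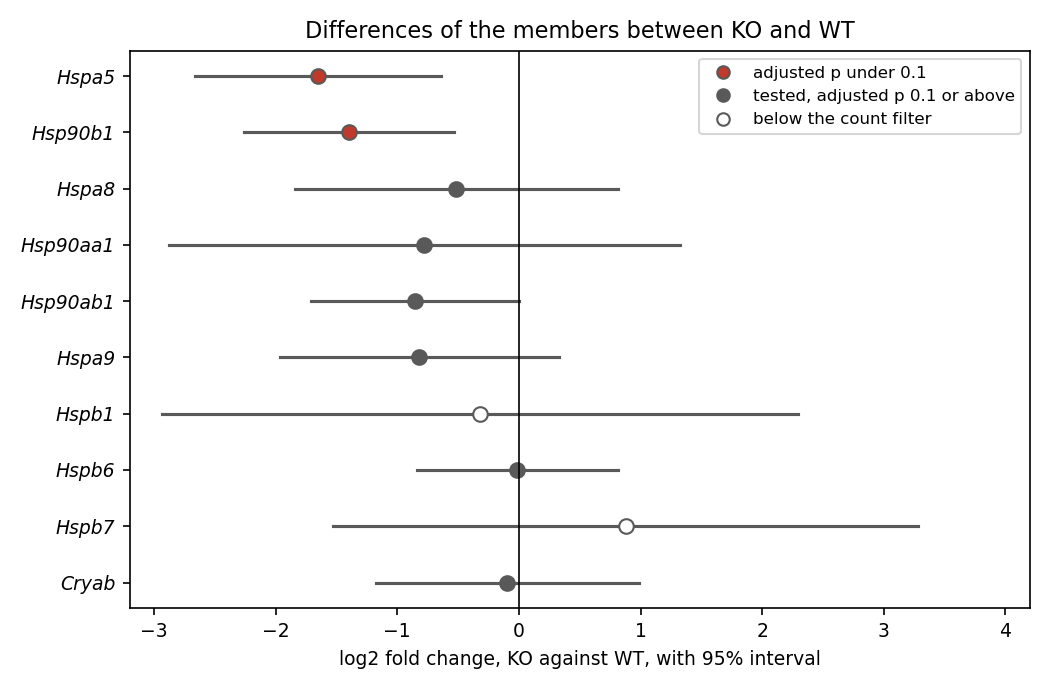
Log2 fold change of KO against WT with its 95% interval for each member, in red where the adjusted p of DESeq2 was under 0.1 and open where the gene was below the count filter. Only the intervals of Hspa5 (-2.66 to -0.64) and Hsp90b1 (-2.26 to -0.53) lie wholly below 0.

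Levels of the members were compared per kilobase of gene span, which includes introns, as transcript lengths were not used here. In KO, Hspb6 was highest at 297 ± 65.2 normalized counts per kb (SD, n = 2), and both libraries lay above those of Hsp90ab1 at 162 ± 51.0. In WT, Hspb6 at 299.6 ± 48.0 and Hsp90ab1 at 293 ± 70.2 overlapped, and Hsp90ab1 was the higher of both in WT replicate 2. All other members lay below this pair in every library, with 55.9 as their highest value. In WT the ER members followed, Hsp90b1 at 53.9 ± 2.83 and Hspa5 at 50.1 ± 3.79, which overlapped each other and lay above Cryab (17.5 ± 4.38) and Hspa8 (16.4 ± 3.51). In KO the libraries of Hsp90b1 (20.5 ± 6.04), Cryab (16.5 ± 8.31) and Hspa5 (15.9 ± 2.51) overlapped, and Hspa5 lay below Cryab in KO replicate 2. Hspa8 was at 11.5 ± 1.33 in KO. The lowest values per kb in both groups were those of Hspb1, Hspa9, Hspb7 and Hsp90aa1, between 1.48 and 10.1 in single libraries. This order depends on the span used as divisor. Hspa9, with a span of 16.9 kb, had a higher normalized count than Hspa8, with 3.93 kb, in every library. Hspa1a and Hspa1b, the stress-inducible HSP70 genes, had no row in the table.

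Reads of the members lay mostly away from the annotated gene start. Of the 10 members, 2 (Hspb1 and Hsp90b1) had a site within 100 bases of it, as did 11.1% of 8895 genes with coordinates. Sites in that window held 3.24% and 4.72% of member reads in KO against 1.02% and 2.69% in WT, and 5.61% of the reads of all genes. Widening it to 500 bases added no member site, whereas 1602 of the 8895 genes then had one and the window held 25.7% of all reads, or 9.13% without Rn18s-rs5, a ribosomal RNA gene. WTSS-seq primes with semirandom primers and no selection of capped ends was described, so a read can mark the 5′ end of a fragment. By class code, 63.6% of member reads were at sites that overlap an exon and an intron, compared with 7.56% for all genes outside ribosomal and mitochondrial RNA. This held in each library, with 58.9% to 66.7% for the members and 6.48% to 10.1% for all genes. Of the member reads at such sites, Hsp90ab1 gave 4669 (58.6%), Hspb6 1443, Hsp90b1 1163 and Cryab 655. As a share of the reads of the gene itself, they made up 96.4% in Hsp90ab1, 87.9% in Cryab, 58.2% in Hsp90b1 and 39.3% in Hspb6, whereas Hspa5, Hspa8, Hsp90aa1 and Hspb7 were read mostly within exons of annotated transcripts. Purely intronic sites held 1.17% of member reads and 33.7% of the reads of all genes. Member sites were also wider, with a median of 29 bases against 13 bases, and more numerous, with a median of 5.5 per gene against 2. The members were not compared with genes of a like number of reads, so a part of read depth in this was not tested.

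**Figure D4:**
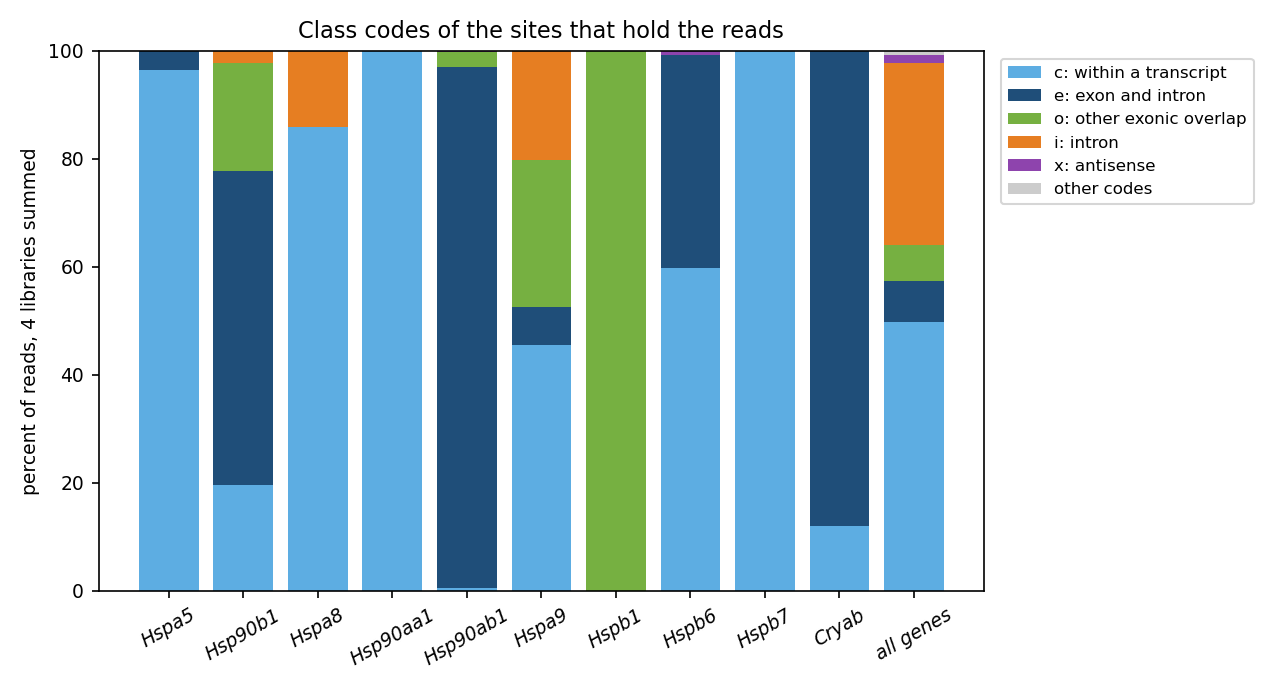
Percent of reads, summed over the 4 libraries, by class code of the site for each member and for all genes outside ribosomal and mitochondrial RNA. Sites that overlap an exon and an intron take 96.4% of the reads of Hsp90ab1 and 87.9% of those of Cryab, against 7.56% for all genes.

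Other genes of the protein folding machinery were read from 10 lists with 131 genes, of which 99 were in the table and 65 were tested. Of these, 3 were called lower in KO (Hspa5, Hsp90b1 and Calr) and 2 were called higher (Hspa2 and Hspd1). Of all tested genes, 0.96% were called lower and 1.71% higher. The median log2 fold change of the tested list genes was -0.19. In the ER list, which includes Hspa5 and Hsp90b1, 11 of 18 genes in the table were tested and 3 were called lower. Both KO libraries lay below both WT libraries in 10 of the 11, against 19.4% of all tested genes. Genes of the list below the count filter had values of both signs and are not in these counts. The median log2 fold change of the tested genes was -0.96, with all 11 values below 0. The summed normalized count of the ER list was 845 and 1184 in KO against 2425 and 2314 in WT. Calr encodes calreticulin, a lectin chaperone and calcium store of the ER, and had 175 and 295 in KO against 763 and 608 in WT (log2 fold change -1.55, SE 0.46, adjusted p = 0.0474 by DESeq2 and 0.212 by edgeR). Canx, its membrane-bound partner calnexin, had 54.4 and 89.1 in KO against 98.2 and 137 in WT (adjusted p = 0.876 by DESeq2). Of tested genes, Dnajc3, a co-chaperone of BiP, was the one whose groups overlapped.

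The ER stress element printed above was also found in Calr, Canx, Creld2, Dnajc3 and Pdia6 among the lists. The matches, with CCAAT and CCACG in capitals, are shown because they have the same form as those of the ER members.
Calr: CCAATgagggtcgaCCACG
Canx: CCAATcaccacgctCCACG
Dnajc3: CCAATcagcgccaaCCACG
Pdia6: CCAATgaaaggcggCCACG
Hspa5: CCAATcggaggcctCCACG

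Over the whole promoter table, 37 genes held the element and 8 of them were tested. Of these, 3 were called lower in KO (Calr, Hsp90b1 and Hspa5) and 0 higher, where 0.96% of all tested genes were called lower. A log2 fold change below 0 was found in 6 of the 8, and the median was -0.63. The 8 genes include ER chaperones already described, so this count is not separate from theirs. Acacb and Hnrnpa3, the tested genes with the element that were on no list, had log2 fold changes of 0.35 and 1.28, with adjusted p-values of 0.988 and 0.356 by DESeq2.

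**Figure D5:**
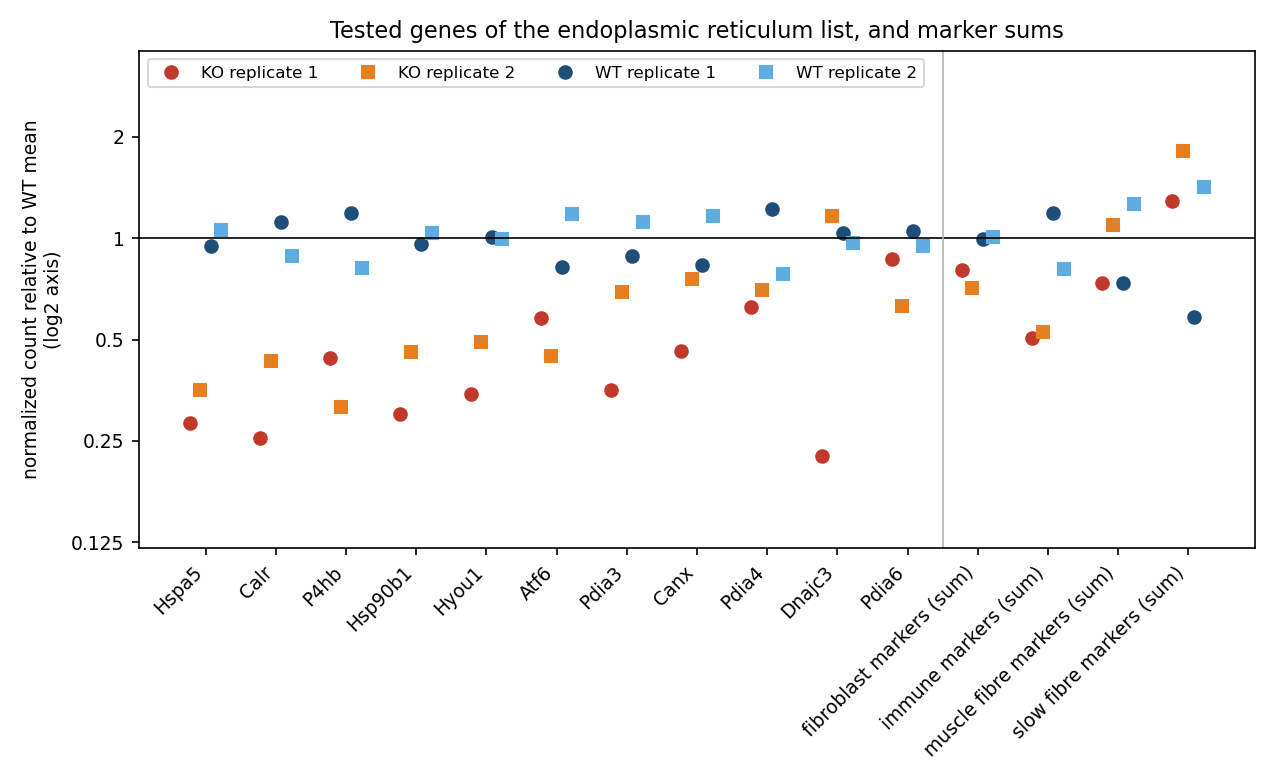
Normalized count of each library relative to the WT mean (log2 axis) for the 11 tested genes of the ER list and for the summed counts of 4 marker lists. The KO points lie below both WT points in 10 of 11 genes, and also for the sums of the fibroblast and immune markers.

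Outside the ER list, the genes called were Hspd1 and Hspa2, both higher in KO, where 1.71% of all tested genes were called higher. Hspd1, the mitochondrial chaperonin HSP60, had 29.3 and 91.8 in KO against 1.40 and 3.74 in WT, from 48 and 105 reads against 1 and 3 reads. The ratio of KO to WT was 20.8 with a 95% interval of 7.98 to 77.5 that covers counting error only (adjusted p = 0.00886 by DESeq2 and 0.0724 by edgeR). In KO replicate 2, 98 of the 105 reads were at 1 site, and the gene was called without KO replicate 1 but not without any 1 of the other libraries. Hspa2, an HSP70 abundant in testis, had 17.1 and 126 in KO against 5.61 and 11.2 in WT (log2 fold change 3.07, SE 1.02, adjusted p = 0.0988 by DESeq2 and 0.221 by edgeR). Of the 144 reads of Hspa2 in KO replicate 2, 135 were at 1 site of 3 bases, and without that library the log2 fold change was 1.03 with no adjusted p. Hspa9 and Hspd1 work in the same compartment, and their log2 fold changes of -0.82 and 4.53 had opposite signs.

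In the remaining lists no further gene was called. The HSP90 list with its co-chaperones had 12 tested genes, a median log2 fold change of -0.45 and 1 call, Hsp90b1, and its non-members of most reads were Smyd1 at -0.19 and Ptges3 at -0.07. The cytosolic HSP70 and HSP110 list had a median of -0.18 over 5 tested genes, with Hspa12a at -0.18 and Hspa4 at -0.02, and the HSP70 co-chaperones -0.34 over 5, with St13 at 0.39 and Bag3 at -0.34. The HSP40 proteins had a median of 0.22 over 13 tested genes, with Dnaja2 at -0.19 and Dnajc7 at 0.44. The chaperonin and prefoldin list had 0.14 over 7, with Vbp1 at 0.22 and Pfdn2 at -0.62, and the mitochondrial list -0.16 over 7, with Clpx at -0.32 and Yme1l1 at -0.16. The small heat shock protein list had -0.01 over 3, with Hspb8 at 0.16 and Hspb3, at 0.59, below the count filter. Partners of small heat shock proteins in muscle had -0.09 over 7, with Ttn at 0.04 and Des, which encodes desmin, at 0.16. Of the heat shock factors, Hsf2 was tested at 1.06 and Hsf1, with 4 and 0 reads in KO against 11 and 5 in WT, was not. Apart from Hsp90b1, none of the genes named for these lists was past the threshold.

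Markers of cell types were read beside the ER result. The 10 muscle fibre markers were all present and tested, and 9 of 10 had a log2 fold change below 0 (median -0.08, 0 called). Their summed normalized counts were 26564 and 39581 in KO against 26514 and 45632 in WT. Fibroblast markers, 10 of 11 in the table with Postn absent, summed to 3399 and 2999 in KO against 4197 and 4238 in WT, and 8 of 9 tested had a log2 fold change below 0 (median -0.49, 0 called). Macrophage and other immune markers, 7 of 10 in the table with Cd68, Cd79a and C1qa absent, summed to 199 and 207 in KO against 468 and 320 in WT (median -1.02 over 5 tested, 0 called). Both sums were thus lower in both KO libraries, as were the ER members. The endothelial sum, with 364 and 379 in KO against 309 and 319 in WT, was higher in both KO libraries. So was the blood sum, with 28.1 and 24.5 in KO against 21.0 and 16.2 in WT. The part of these cell types in the ER result was not tested. Slow fibre markers had a median of 0.51 over 9 tested and summed to 1264 and 1782 in KO against 571 and 1391 in WT, where WT replicate 1 was lowest. Medians of the other lists were -0.27 for adipocyte (7 tested), 0.14 for endothelial (5), -0.65 for satellite cell (2) and -0.11 for immediate early genes (3), with 0 called, and the Schwann cell and blood lists had 1 tested gene each, at -2.78 and 0.72.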

How the data were processed

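Total RNA of gastrocnemius muscle from 2 KO and 2 WT mice was depleted of ribosomal RNA, reverse transcribed with template switching and semirandom primers, amplified by PCR and sequenced from the 5′ end. The authors deposited raw counts of reads per clustered site, 1 column per library, on the genome build GRCm38.p5 per the labels. The aligner and clustering window of these libraries were not given in the sources used here. Sites have at least 10 reads over the 4 libraries, which favours sites of the deeper KO libraries, and 3 reads, the floor of detection, were 1.03 to 2.31 ppm of a library. No molecular identifiers were described, and the interval of the Hspd1 ratio and the floors cover counting error only. Intervals of log2 fold changes were taken from the SE of DESeq2, which also includes the fitted spread between libraries. Groups and replicate numbers came from the sample titles.

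Counts were summed per gene symbol and tested with DESeq2 (1.42.0, R 4.3.3) as in the study's methods, over all genes or all sites, with median-of-ratios size factors, and called at a Benjamini-Hochberg adjusted p under 0.1. Default independent filtering left genes with a mean normalized count above 16.5 and sites above 8.76. The quasi-likelihood test of edgeR (4.0.16) with TMM factors and filterByExpr, and diffSpliceDGE for site usage, were run beside it. The gene fits of DESeq2 and edgeR and the usage test were run on simulated data, with rates not given here. The site fits and the block fits were not. Positions are those of GRCm38, counted from 1, and gene spans and promoters are from RefSeq (GRCm38.p6), which held all 10 members. Named were all members, for each member its site with most reads, called sites and the 3 member sites of smallest p, and per list the called genes and the 2 non-members of most reads. The symbols of the members, the lists and the tests were chosen with earlier results of these data known, although no value entered the rule for members. Other genes and sites named in the text were chosen after their values were seen. They include Dnajc3, Creld2, Pdia6, Acacb, Hnrnpa3, Hspe1, Ddit3 and the start site of Hsp90b1. Also among them are the second Hspb6 site, the Hsp90ab1 sites at 2140 and 2523 bases, and the single sites of Hspd1 and Hspa2.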

Additional observations from a re-analysis of the deposited data

How the results depend on the processing

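Member genes called numbered 2 in the main comparison, 2 with TMM factors, with library totals and with primary chromosomes only, 1 after filterByExpr (Hspa5), and 0 with edgeR, without independent filtering, with exonic sites only and at a threshold of 0.05. Leaving out 1 library gave 0 to 0 calls among member genes, 0 to 0 among member sites and 0 to 2 in the chaperone lists. Member sites called numbered 2, with 0 by edgeR and without independent filtering and 1 at 0.05. The chaperone lists had 5 calls, with 1 by edgeR, 2 without independent filtering and 2 at 0.05. The replicate numbers were not shown to pair the libraries (correlation of deviations 0.0716 over 5821 genes). With the replicate block, DESeq2 called 1 member gene (Hsp90b1), 1 member site and 3 list genes, and edgeR 0, 0 and 1. Site usage gave 0 calls in every alternative run, the block included, and the share of member reads near the gene start was 2.92% with either window.

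Hspa5 and Hsp90b1 stayed below 0 in all 14 alternatives each and were not called in 10 of them, with adjusted p from 0.0638 to 0.835 and from 0.0691 to 0.968. Values that changed sign were those of small heat shock protein genes, none of them called. Without KO replicate 1 the log2 fold change was 0.41 for Hspb1, 0.21 for Hspb6 and 0.36 for Cryab. Without WT replicate 2 it was 0.13 for Hspb6 and 0.16 for Cryab, without KO replicate 2 it was -0.70 for Hspb7, and with exonic sites only it was 0.24 for Hspb6 and 0.13 for Cryab. Exonic sites here include those that overlap an exon and an intron. Cryab and Hspa5 had 0% of reads at intronic or antisense sites, so their own counts were the same in that run. Their values moved there with the size factors and the fit over all genes. Over the 4 comparisons that left out 1 library, the values ran from -1.76 to 0.41 for Hspb1, from -0.25 to 0.21 for Hspb6, from -0.70 to 1.64 for Hspb7 and from -0.72 to 0.36 for Cryab. The cause of these changes between libraries was not tested. Library totals moved the median log2 fold change of the 11112 sites tested in the main comparison from 0.10 to -0.03. With 2 libraries per group, members of few reads (Hsp90aa1, Hspb1, Hspb7) allow no firm statement in either direction.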

Other observations

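Hspe1, which encodes HSP10, the lid of the HSP60 chaperonin, had normalized counts of 4.89 and 6.99 in KO against 22.4 and 32.4 in WT (log2 fold change -2.22, SE 1.10, adjusted p = 0.497 by DESeq2), whereas Hspd1, its partner from the opposite strand of the same promoter region, was higher in KO. The values of Hspe1 rested on 8 and 8 reads in KO against 16 and 26 in WT.

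In Hsp90ab1, the sites 2140 and 2523 bases from the gene start had 36.7 and 38.0, and 37.4 and 34.5, in the KO libraries with 38.1 and 35.8 in WT replicate 2, but 4.07 and 1.36 in WT replicate 1. WT replicate 1 was also the lowest library at the start site of Hsp90b1. Among genes of the ER list below the count filter, Ddit3, which encodes the stress-induced factor CHOP, had 18.9 and 33.2 in KO against 2.80 and 9.96 in WT, the opposite direction to the tested genes of the list, with no adjusted p.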
